A study of Saccharomyces cerevisiae with 12 samples.

Results

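Transcript levels were followed for 6 genes that regulate the methionine pathway of Saccharomyces cerevisiae: MET4, MET28, MET30, MET31, MET32 and CBF1. They were taken by their systematic names, and all 6 were found among the 6713 targets quantified in each library and passed the filter on low counts. Messenger RNA was sequenced in 12 libraries of the S288c strain background, 3 each of RPD3 KO (deletion of the histone deacetylase gene RPD3), RPD3 S418A (a serine of the deacetylase changed to alanine), SWI3 S237A (a serine of Swi3, a subunit of the SWI/SNF chromatin remodeller, changed to alanine) and wild type. Every library was labelled as grown in synthetic defined medium and harvested at an optical density of 0.4. A treatment text common to all samples mentions caffeine for part of them, and none of the 12 carries such a label. The methionine content of the medium, any selection marker and the number of clones per strain are unknown here. Libraries are called by the number in their title: the RPD3 KO libraries carry 4, 12 and 20, those of RPD3 S418A carry 3, 11 and 19, those of SWI3 S237A carry 2, 10 and 18, and the wild-type libraries carry 1, 9 and 17.

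Total estimated counts ran from 18292564 to 26952041 per library. RPD3 had 0 counts in the 3 RPD3 KO libraries, where up to 3 counts per library cannot be told from 0, against 2192 to 2567 counts in the wild-type libraries, and 2186 to 2505 counts in the libraries of the point mutants, whose alleles are taken from the labels. MET17, whose enzyme joins sulfide to a carbon chain in the last step of sulfur assimilation, had 0 counts in all 12 libraries, wild type included, so each strain was measured without detectable MET17 RNA. Counts do not show whether that gene is deleted. Levels below are CPM (counts scaled to a common library size with TMM factors) as mean ± SD with n = 3 libraries per strain. Fold changes are log2 from edgeR ± an SE computed from its test, with Benjamini-Hochberg adjusted p over all 6327 tested genes. Whether a strain's 3 libraries are separate cultures is not in the labels, so p-values measure the spread between these libraries, which may be technical. Fewer transcripts per cell and fewer expressing cells cannot be told apart in these bulk samples.

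Met4 is the activator of the sulfur amino acid genes and does not bind DNA well on its own. It is brought to promoters by Cbf1, a basic helix-loop-helix protein that binds CACGTG and also sits at centromeres, together with the leucine zipper protein Met28, and by the paired zinc finger proteins Met31 and Met32, which bind AAACTGTGG. When sulfur compounds are plentiful, Met30, the F-box subunit of an SCF ubiquitin ligase, ubiquitinates Met4 and holds it inactive, and several of these genes are themselves Met4 targets.

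The upstream sequences of MET28, MET30 and MET32 are shown because each holds a match to the Met31 and Met32 motif, and that of MET31 because it holds none while MET31 is the paralog of MET32. Each runs 5′ to 3′ on the strand of its gene, from 350 to 51 bases before the start codon, in the RefSeq R64 sequence. Capitals mark CACGTG, AAACTGTGG and its core CTGTGG on either strand (the last 2 overlap, and read CCACAGTTT and CCACAG on the other strand).
MET28, chrIX:384170-384469, minus strand: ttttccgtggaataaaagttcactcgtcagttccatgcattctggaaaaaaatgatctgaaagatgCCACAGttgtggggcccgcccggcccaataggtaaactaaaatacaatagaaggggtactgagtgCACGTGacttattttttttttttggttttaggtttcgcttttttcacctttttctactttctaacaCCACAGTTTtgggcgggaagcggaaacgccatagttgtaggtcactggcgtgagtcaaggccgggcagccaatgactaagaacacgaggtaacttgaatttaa
MET30, chrIX:268301-268600, plus strand: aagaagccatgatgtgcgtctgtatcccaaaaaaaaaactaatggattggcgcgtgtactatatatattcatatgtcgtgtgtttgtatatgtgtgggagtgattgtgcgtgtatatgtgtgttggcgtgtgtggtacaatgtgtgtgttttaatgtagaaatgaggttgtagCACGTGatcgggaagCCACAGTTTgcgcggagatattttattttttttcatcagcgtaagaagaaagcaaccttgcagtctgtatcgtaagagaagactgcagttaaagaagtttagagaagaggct
MET32, chrIV:964616-964915, minus strand: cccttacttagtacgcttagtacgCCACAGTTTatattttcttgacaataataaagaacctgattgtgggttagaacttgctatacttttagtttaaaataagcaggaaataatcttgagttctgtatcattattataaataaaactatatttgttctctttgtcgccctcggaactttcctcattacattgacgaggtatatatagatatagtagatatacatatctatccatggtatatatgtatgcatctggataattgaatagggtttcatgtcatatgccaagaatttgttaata
MET31, chrXVI:480185-480484, plus strand: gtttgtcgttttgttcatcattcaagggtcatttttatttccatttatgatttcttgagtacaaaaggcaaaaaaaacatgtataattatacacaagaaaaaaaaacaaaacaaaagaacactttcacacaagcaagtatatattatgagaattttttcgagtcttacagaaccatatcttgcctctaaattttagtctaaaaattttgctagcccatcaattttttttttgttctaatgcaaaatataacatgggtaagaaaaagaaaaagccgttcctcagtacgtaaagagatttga
In the MET30 window CACGTG begins 177 bases before the start codon and the other motif ends 154 bases before it. In the MET28 window CACGTG begins 219 bases and the full AAACTGTGG match 153 bases before the start codon, with a further core match at 284. In the MET32 window AAACTGTGG begins 326 bases before the start codon. CACGTG also begins 330 bases before the start codon of MET4 and 168 before that of CBF1. Of 6020 windows of the same length, 4.02% hold CACGTG, 0.565% hold AAACTGTGG and 7.59% hold CTGTGG, against 4, 3 and 3 of the 6 regulators. The letters GCCGCC, the core of the element bound by Ume6, which recruits Rpd3, are in 5.68% of all windows and in 0 of the 6. The MET30 window overlaps the small frame YIL046W-A by 165 bases and the MET31 window overlaps YPL038W-A by 189 bases. A match describes letters in a window and is not a measurement of binding.

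Of the 6 regulators, 5 differed from wild type in RPD3 KO, 0 in RPD3 S418A and 5 in SWI3 S237A at an adjusted p under 0.05. MET4 and MET30 were higher in RPD3 KO, and MET28, MET32 and CBF1 were lower. In SWI3 S237A MET4, MET28, MET30 and MET32 were higher and CBF1 was lower, and the CBF1 call there was lost in 8 of 13 alternatives. Over all genes 69.9% were called in RPD3 KO (31.9% higher, 38.0% lower), 2.02% in RPD3 S418A (0.822% higher, 1.2% lower) and 60.0% in SWI3 S237A (28.7% higher, 31.3% lower). With such backgrounds a count of 5 or 0 of 6 sets the regulators apart from the genome in none of the mutants. The median log2 change of the 6 was -0.16 in RPD3 KO, 0.03 in RPD3 S418A and 0.88 in SWI3 S237A, beside -0.06, -0.0048 and -0.02 over all genes. The 3 comparisons share the wild-type libraries.

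**Figure D1:**
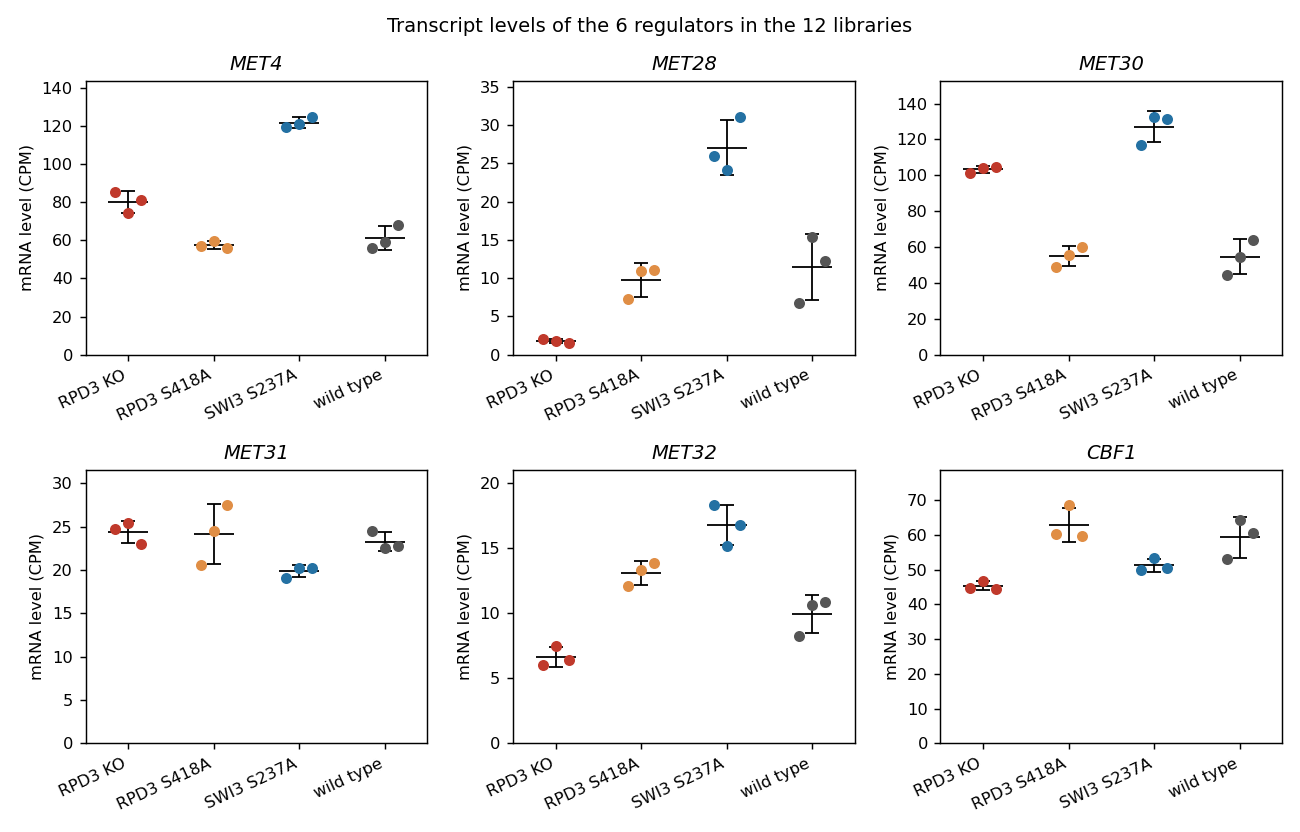
Transcript level in CPM (vertical axis, from 0) of each regulator in the 12 libraries, by strain; points are libraries, horizontal marks the mean and bars the SD (n = 3). MET4 and MET30 stood highest in SWI3 S237A and next in RPD3 KO, and MET28 and MET32 were highest in SWI3 S237A and lowest in RPD3 KO.

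MET4 (YNL103W, chromosome XIV, 427735 to 429753), the activator itself, had 85.1, 74.1 and 80.9 CPM in the RPD3 KO libraries, 57.2, 59.9 and 55.8 CPM in the RPD3 S418A libraries, 119.3, 121.1 and 124.8 CPM in the SWI3 S237A libraries, and 56.2, 59.0 and 68.3 CPM in the wild-type libraries. The RPD3 KO and SWI3 S237A libraries all lay above wild type, and those of RPD3 S418A overlapped with it. MET4 rose by 0.99 ± 0.08 on the log2 scale in SWI3 S237A (adjusted p = 4.63e-07) and by 0.39 ± 0.08 in RPD3 KO (adjusted p = 0.000737). In RPD3 S418A the difference was -0.09 ± 0.08 (adjusted p = 0.592, 95% interval -0.26 to 0.09). From the highest level down the order was SWI3 S237A, RPD3 KO, wild type and RPD3 S418A, and SWI3 S237A exceeded RPD3 KO by 0.60 ± 0.08 (adjusted p = 2.43e-05). The last 2 strains did not differ beyond their spread.

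MET30 (YIL046W, chromosome IX, 268651 to 270573), the inhibitor of Met4, showed the most similar profile to MET4 among the regulators. It had 101.1, 104.3 and 104.5 CPM in the RPD3 KO libraries, 48.9, 55.9 and 60.3 CPM in RPD3 S418A, 117.2, 132.7 and 131.6 CPM in SWI3 S237A, and 44.7, 54.7 and 64.2 CPM in wild type. All RPD3 KO and SWI3 S237A libraries were above all wild-type libraries. The rise was 1.22 ± 0.12 in SWI3 S237A (adjusted p = 2.08e-06) and 0.92 ± 0.12 in RPD3 KO (adjusted p = 1.28e-05). RPD3 S418A stood level with wild type at 55.0 ± 5.73 against 54.5 ± 9.75 CPM (log2 0.01 ± 0.12, adjusted p = 0.961, 95% interval -0.24 to 0.26). SWI3 S237A exceeded RPD3 KO by 0.30 ± 0.11 (adjusted p = 0.0342), a call that was lost when any 1 of the 6 libraries was left out (adjusted p from 0.0624 to 0.0995) and with scaling by total counts alone (log2 0.17, adjusted p = 0.234).

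MET28 (YIR017C, chromosome IX, 383556 to 384119), the zipper cofactor of Cbf1 and Met4, was the regulator with the widest range. It had 2.02, 1.73 and 1.52 CPM in the RPD3 KO libraries, 7.26, 10.9 and 11.1 CPM in RPD3 S418A, 25.9, 24.2 and 31.1 CPM in SWI3 S237A, and 6.79, 15.3 and 12.2 CPM in wild type. RPD3 KO lay below and SWI3 S237A above every wild-type library, while wild-type replicate 1 stood lower than replicates 9 and 17. MET28 fell by 2.70 ± 0.31 on the log2 scale in RPD3 KO (adjusted p = 1.03e-05) and rose by 1.24 ± 0.25 in SWI3 S237A (adjusted p = 0.0012). The direct comparison gave SWI3 S237A a level 3.93 ± 0.30 higher on the log2 scale than RPD3 KO (adjusted p = 5.86e-07), or 2.80 ± 0.23 with the overlapping target described next added. In RPD3 S418A the difference from wild type was -0.24 ± 0.26 (adjusted p = 0.655, 95% interval -0.80 to 0.33).

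The size of these MET28 changes depends on a second target. MET28 was the only 1 of the 6 regulators with estimated counts that were not whole, and adding those of YIR017W-A, a frame of 600 bases whose name places it on the other strand of the same arm, gave a whole number in all 12 libraries to within 0.001 counts. Reads compatible with both were therefore divided between them by the quantification. MET28 held 32.8%, 26.7% and 28.5% of the summed counts in the RPD3 KO libraries, 42.6%, 50.9% and 49.3% in RPD3 S418A, 65.9%, 58.4% and 70.1% in SWI3 S237A, and 66.6%, 79.4% and 58.9% in wild type. With the pair summed, the level was 5.98 ± 0.571 CPM in RPD3 KO, 20.3 ± 2.89 in RPD3 S418A, 41.7 ± 2.53 in SWI3 S237A and 16.8 ± 5.75 in wild type. Both calls stayed: the sum fell by 1.49 ± 0.23 in RPD3 KO (adjusted p = 0.000123) and rose by 1.31 ± 0.21 in SWI3 S237A (adjusted p = 0.000228). In RPD3 S418A the sign turned, to 0.28 ± 0.21 (adjusted p = 0.51). YIR017W-A taken alone rose in SWI3 S237A (log2 1.47 ± 0.27, adjusted p = 0.00055) and did not pass in RPD3 KO (log2 -0.33 ± 0.29, adjusted p = 0.324) or RPD3 S418A (log2 1.00 ± 0.27, adjusted p = 0.0898).

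**Figure D2:**
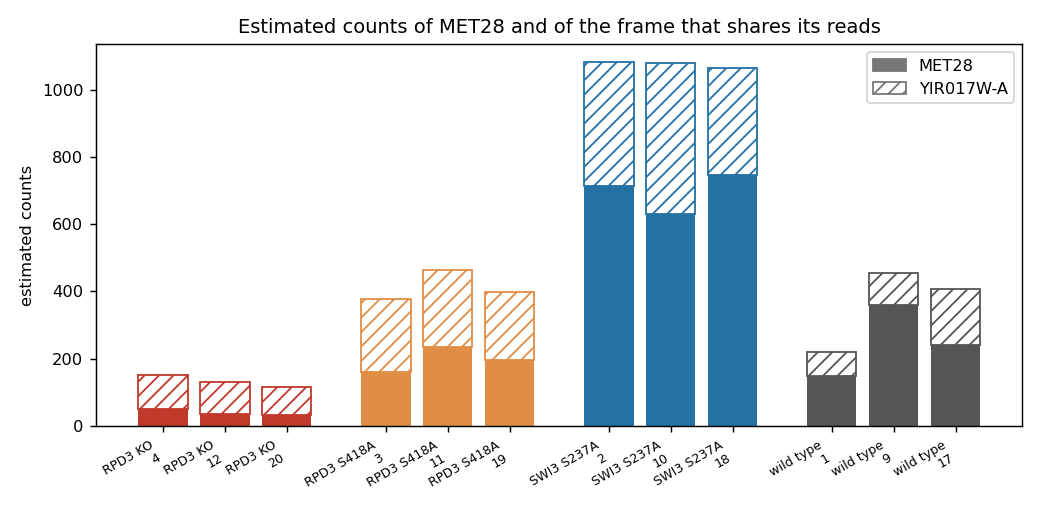
Estimated counts (vertical axis, not scaled for depth) of MET28 (filled) and YIR017W-A (hatched) stacked for each of the 12 libraries. The stacks reach 116 to 151 counts in RPD3 KO and 1066 to 1082 in SWI3 S237A, with MET28 the smaller share in RPD3 KO.

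MET32 (YDR253C, chromosome IV, 963990 to 964565), a zinc finger protein that brings Met4 to DNA, was lowest in RPD3 KO and highest in SWI3 S237A, as MET28 was, at smaller size. It had 5.99, 7.47 and 6.42 CPM in the RPD3 KO libraries, 12.0, 13.3 and 13.8 CPM in RPD3 S418A, 18.3, 15.2 and 16.8 CPM in SWI3 S237A, and 8.22, 10.6 and 10.9 CPM in wild type. No mutant overlapped with wild type, RPD3 KO lying below it and the point mutants above it. The share of all genes without such overlap was not counted, here or for the other regulators. MET32 fell by 0.58 ± 0.13 in RPD3 KO (adjusted p = 0.00188) and rose by 0.76 ± 0.13 in SWI3 S237A (adjusted p = 0.000257). In RPD3 S418A it was the only regulator with an unadjusted edgeR p under 0.05, at log2 0.40 ± 0.13 with a 95% interval of 0.12 to 0.68, and it did not pass after adjustment (adjusted p = 0.148). DESeq2 likewise had 1 regulator under 0.05 before adjustment and 0 after. SWI3 S237A stood above RPD3 S418A by 0.36 ± 0.13 (adjusted p = 0.0239), a call lost without SWI3 S237A replicate 2 (adjusted p = 0.0865) or 18 (0.0584) or RPD3 S418A replicate 3 (0.0805).

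MET31 (YPL038W, chromosome XVI, 480535 to 481068), the paralog of MET32, varied least of the 6. It had 24.8, 25.4 and 23.0 CPM in the RPD3 KO libraries, 20.5, 24.5 and 27.4 CPM in RPD3 S418A, 19.1, 20.2 and 20.2 CPM in SWI3 S237A, and 24.5, 22.5 and 22.8 CPM in wild type. Only the SWI3 S237A libraries lay apart from wild type, all 3 below it. The difference in SWI3 S237A, -0.23 ± 0.10, did not pass (adjusted p = 0.0589), although it did in a fit of those 2 strains alone (adjusted p = 0.0305). In RPD3 KO (log2 0.07 ± 0.10, adjusted p = 0.547, 95% interval -0.14 to 0.28) and RPD3 S418A (log2 0.05 ± 0.10, adjusted p = 0.816, 95% interval -0.16 to 0.26) it did not pass either, but scaling by total counts alone, which moves the median of all genes in RPD3 KO by 0.18, gave MET31 a rise there (log2 0.25, adjusted p = 0.0348). Between mutants, SWI3 S237A was lower than RPD3 KO by -0.30 ± 0.10 (adjusted p = 0.0171) and lower than RPD3 S418A by -0.28 ± 0.10 (adjusted p = 0.0228). The first was lost without RPD3 KO replicate 12 (adjusted p = 0.0577) and the second without SWI3 S237A replicate 2 (0.0906) or RPD3 S418A replicate 11 (0.061) or 19 (0.106).

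CBF1 (YJR060W, chromosome X, 548759 to 549814), whose protein binds CACGTG and also sits at centromeres, moved little. It had 44.7, 46.8 and 44.5 CPM in the RPD3 KO libraries, 60.2, 68.4 and 59.6 CPM in RPD3 S418A, 49.8, 53.3 and 50.4 CPM in SWI3 S237A, and 52.9, 64.2 and 60.5 CPM in wild type. RPD3 KO lay below every wild-type library, and SWI3 S237A overlapped with wild type at 1 library. CBF1 fell by 0.39 ± 0.08 in RPD3 KO (adjusted p = 0.000918), or by 0.21 with an adjusted p of 0.0507 under scaling by total counts alone. In SWI3 S237A it fell by 0.21 ± 0.08 (adjusted p = 0.0376), and over the 13 alternatives the adjusted p ran from 0.00402 to 0.166. RPD3 S418A did not pass (log2 0.08 ± 0.08, adjusted p = 0.604, 95% interval -0.09 to 0.26), nor did SWI3 S237A against RPD3 KO (log2 0.18 ± 0.08, adjusted p = 0.074).

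**Figure D3:**
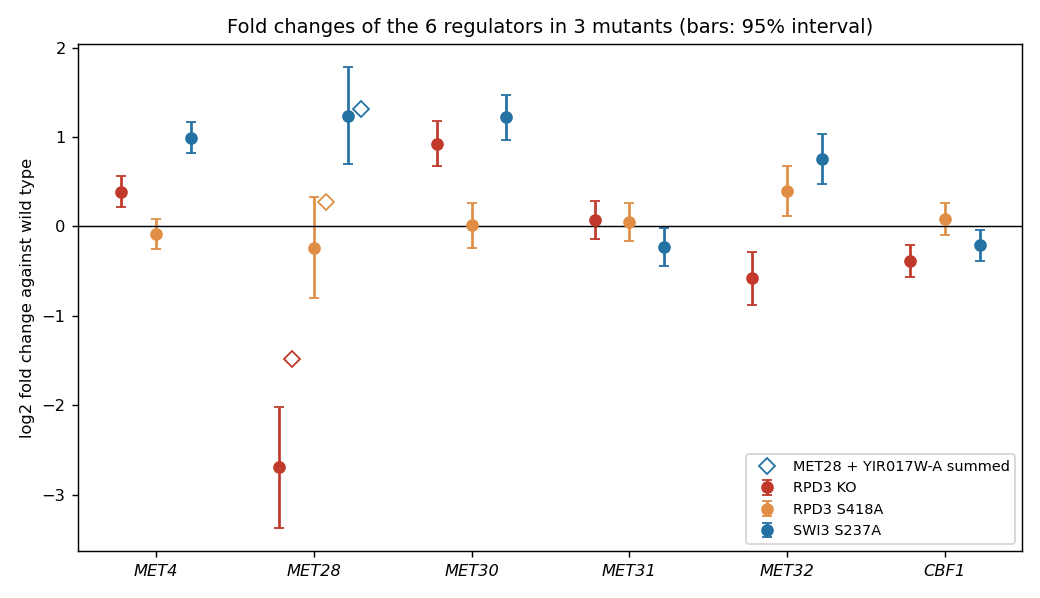
Log2 fold change against wild type (vertical axis) of the 6 regulators in RPD3 KO, RPD3 S418A and SWI3 S237A, with 95% intervals; open diamonds, drawn without intervals, show MET28 and YIR017W-A counted as 1 target. MET28 spans the widest range, from -2.70 in RPD3 KO to 1.24 in SWI3 S237A, and with the pair summed from -1.49 to 1.31.

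In the authors' deposited table of RPD3 KO against wild type the log2 fold changes were 0.44 for MET4, -2.68 for MET28, 0.97 for MET30, 0.12 for MET31, -0.53 for MET32 and -0.34 for CBF1. The authors' deposited table for SWI3 S237A gave 1.02 for MET4, 1.26 for MET28, 1.25 for MET30, -0.21 for MET31, 0.78 for MET32 and -0.19 for CBF1. The same genes passed at an adjusted p under 0.05 in the authors' deposited tables and in edgeR, except CBF1 in SWI3 S237A, whose adjusted p in the authors' deposited table was 0.23. For RPD3 S418A the authors' deposited table had 0 of 6 regulators under 0.05, the lowest being MET32 with an adjusted p of 0.488.

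Set directly against RPD3 KO, RPD3 S418A differed in 5 of 6 regulators, beside 72.7% of all genes (39.4% higher, 33.3% lower). MET4 (log2 -0.47 ± 0.08) and MET30 (log2 -0.91 ± 0.12) were lower in RPD3 S418A, and MET28 (log2 2.46 ± 0.31, or 1.76 ± 0.23 summed with YIR017W-A), MET32 (log2 0.98 ± 0.13) and CBF1 (log2 0.47 ± 0.08) were higher, with adjusted p from 1.25e-05 to 0.000177. MET31 did not pass (log2 -0.02 ± 0.10, adjusted p = 0.886). SWI3 S237A differed from RPD3 KO in 5 of 6 regulators, beside 64.4% of all genes (32.3% higher, 32.1% lower), and from RPD3 S418A in 6 of 6, beside 65.8% (31.9% higher, 33.9% lower). Against RPD3 KO, MET28 and MET32 had the largest differences among the 6, MET32 being higher by 1.34 ± 0.13 (adjusted p = 2.19e-06). Against RPD3 S418A, MET4 was higher by 1.08 ± 0.08, MET30 by 1.21 ± 0.12 and MET28 by 1.47 ± 0.25 (1.04 ± 0.21 summed with YIR017W-A), with adjusted p from 1.84e-07 to 0.000316, and CBF1 was lower (log2 -0.29 ± 0.08, adjusted p = 0.00608).

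Per length of transcript, the regulators were expressed at similar levels in wild type, between 18.5 and 42.5 TPM (counts scaled for target length and depth). CBF1 had 42.5 ± 5.98 TPM and MET31 39.7 ± 0.158, above MET4 with 24.1 ± 3.29, and MET30 (18.7 ± 4.03), MET28 (18.6 ± 7.61) and MET32 (18.5 ± 3.46) overlapped with each other. The highest of them, CBF1, exceeded 62.0% of the 6713 targets and the lowest, MET32, 36.6%. In SWI3 S237A the order of MET4 and CBF1 was turned, with 52.6 ± 1.16 TPM for MET4 and 39.9 ± 1.02 for CBF1. In RPD3 KO MET28 stood at 3.27 ± 0.47 TPM, above only 11.0% of targets. MET28 values here leave out the counts of YIR017W-A. In RPD3 KO MET28 held 26.7% to 32.8% of the summed counts, so its rank depends on that division.

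The balance between the activator gene and that of its inhibitor, as the ratio of TPM of MET4 to MET30, was 0.974, 0.821 and 0.889 in the RPD3 KO libraries, 1.34, 1.23 and 1.06 in RPD3 S418A, 1.18, 1.06 and 1.11 in SWI3 S237A, and 1.45, 1.25 and 1.23 in wild type. RPD3 KO and SWI3 S237A lay below all wild-type libraries, and RPD3 S418A overlapped. The log2 ratio differed from wild type by -0.55 in RPD3 KO and by -0.22 in SWI3 S237A, each with an exact two-sided permutation p of 0.1, and by -0.11 in RPD3 S418A (exact permutation p = 0.5). Adjusted over the 3 mutants the p-values were 0.15, 0.15 and 0.5. The smallest p that 3 against 3 libraries allow is 0.1. Without wild-type replicate 1 the SWI3 S237A difference was -0.15 and without RPD3 S418A replicate 19 the RPD3 S418A difference was -0.02 (-0.04 without wild-type replicate 1).

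The ratio of the paralogs, MET31 to MET32, was 3.83, 3.15 and 3.28 in the RPD3 KO libraries, 1.58, 1.69 and 1.82 in RPD3 S418A, 0.935, 1.19 and 1.07 in SWI3 S237A, and 2.74, 1.95 and 1.93 in wild type. The 4 strains did not overlap, RPD3 KO being highest and SWI3 S237A lowest, near an equal level of both transcripts. The log2 differences from wild type were 0.65 in RPD3 KO, -0.36 in RPD3 S418A and -1.03 in SWI3 S237A, and each had an exact permutation p of 0.1 (adjusted p = 0.1). Without wild-type replicate 1 the RPD3 S418A difference was -0.20.

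**Figure D4:**
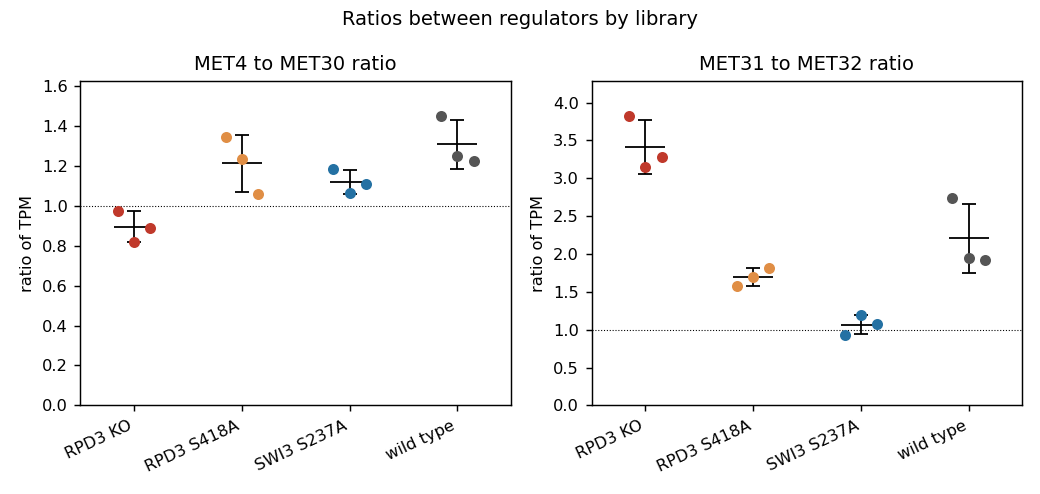
Ratio of TPM of MET4 to MET30 (left) and of MET31 to MET32 (right) in each library by strain, with the mean and SD (n = 3) and a dotted line at 1. The ratio of MET4 to MET30 is below 1 in the RPD3 KO libraries, and that of MET31 to MET32 is 3.42 in RPD3 KO, 1.07 in SWI3 S237A and 2.21 in wild type on average.

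Across the 12 libraries profiles were compared by the root mean square difference in centred log2 CPM. Among the regulators the smallest were 0.23 for MET4 and MET30 and 0.24 for MET31 and CBF1. MET28 was 0.89 from MET32 and 1.24 to 1.42 from the rest. Typical distances differ by gene. The median over the 5196 other genes described next was 1.36 for MET28, 0.64 for MET30 and 0.32 for MET31 and for CBF1. Distances of 1.24 to 1.42 were thus usual for MET28, and 0.89 was below its median. Among 5196 other genes with at least 10 CPM, those nearest to MET4 were the glucose sensor gene RGT2 (0.07), the replicative helicase gene MCM7 (0.07) and the kinase gene CLA4 (0.09), against a median of 0.53 over all of them. Nearest to MET30 were the cell wall sensor gene WSC2 (0.13), the ubiquitin ligase gene DMA2 (0.13) and the sterol acyltransferase gene ARE1 (0.14). For MET28 they were the maltose activator gene MAL33 (0.36), AYT1 (0.40) and the kynureninase gene BNA5 (0.41). MET31 was nearest to the Mediator subunit gene SOH1 (0.045), to PML1 (0.07) and to SLC1 (0.08), and CBF1 to the kinetochore gene NKP1 (0.06), to DOT5 (0.07) and to PBP1 (0.08). MET32 was nearest to RMD6 (0.12), APA2 (0.13) and the sulfate assimilation gene MET22 (0.13). These distances describe 12 libraries of 4 strains. Those of MET28 use the counts assigned to it alone and were not computed with YIR017W-A added.

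Transcripts of the genes of sulfate uptake and assimilation, which are targets of Met4, were tested for 10 of 11 listed, MET17 being untested. In SWI3 S237A 10 of the 10 were higher, beside 28.7% higher among all genes. Among all genes 31.9% were higher and 38.0% lower in RPD3 KO, and 0.822% higher and 1.2% lower in RPD3 S418A. The list's median log2 change was 1.79 in SWI3 S237A. It was -0.34 in RPD3 KO (3 higher, 6 lower) and 0.18 in RPD3 S418A (1 higher, 0 lower). That 1 call, of the phosphoadenylylsulfate reductase gene MET16, was lost without RPD3 S418A replicate 11 or 19 or wild-type replicate 9 or 17 and in a fit of the 2 strains alone, and DESeq2 called 2 genes of the list. In SWI3 S237A the sulfurylase gene MET3, picked with its values in view, reached 353 ± 9.56 CPM, against 45.2 ± 2.36 in wild type (log2 2.96 ± 0.07, adjusted p = 1.16e-11). In RPD3 KO the sulfate permease gene SUL1 (log2 -1.71 ± 0.09) and the adenylylsulfate kinase gene MET14 (log2 -0.89 ± 0.15) fell, and the siroheme synthesis gene MET8 (log2 1.37 ± 0.12) and the sulfite reductase gene MET10 (log2 0.86 ± 0.08) rose. In SWI3 S237A the same 4 were higher, by 0.34, 1.67, 1.69 and 2.46, and in RPD3 S418A none of the 4 passed (log2 -0.05, -0.04, -0.15 and 0.31). CACGTG is in the upstream windows of 9 of the 11 listed genes and AAACTGTGG in 1.

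In the methionine cycle and transsulfuration list 12 of 14 genes were higher and 1 lower in SWI3 S237A. Among all genes 28.7% were higher and 31.3% lower there. The list's median log2 was 0.87, beside -0.02 over all genes. The methionine synthase gene MET6, likewise picked with its values in view, stood at 2578 ± 39.4 CPM in SWI3 S237A, against 408 ± 20.0 in wild type (log2 2.66 ± 0.07, adjusted p = 2.77e-11). RPD3 KO had 6 higher and 4 lower (median log2 0.17), near the 69.9% of all genes called there. RPD3 S418A had 3 higher and 0 lower (median log2 0.18), beside 0.822% higher and 1.2% lower among all genes. In RPD3 KO the S-adenosylmethionine synthetase gene SAM1 (log2 1.47 ± 0.13), the S-adenosylhomocysteine hydrolase gene SAH1 (log2 0.94 ± 0.15) and the cystathionine synthase gene CYS4 (log2 0.62 ± 0.07) rose, and the homoserine acetyltransferase gene MET2 fell (log2 -0.59 ± 0.20). SAM1 (log2 1.27), SAH1 (log2 0.78) and MET2 (log2 1.78) were higher in SWI3 S237A, where CYS4 did not pass (log2 -0.10). In RPD3 S418A SAM1 (log2 0.06), SAH1 (log2 -0.21), CYS4 (log2 0.08) and MET2 (log2 0.25) did not pass. The 3 genes higher there were STR3 (log2 0.92 ± 0.10), MET6 (log2 0.61 ± 0.07) and SAM2 (log2 0.53 ± 0.07). MET6 was also higher in RPD3 KO (log2 0.20 ± 0.07, adjusted p = 0.0243). Counts of SAM1, SAM2 and MET2 were not whole in some libraries, so part of their reads was shared with other targets.

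Of the 6 uptake and recycling genes of methionine and S-adenosylmethionine, 0 were higher and 5 lower in RPD3 KO. In RPD3 S418A 3 were higher and in SWI3 S237A 2. Among all genes 31.9% were higher and 38.0% lower in RPD3 KO, 0.822% were higher in RPD3 S418A and 28.7% in SWI3 S237A. The RPD3 KO count was 3 under scaling by total counts alone. The RPD3 S418A count was 0 in a fit of those 2 strains alone, which ends the calls of MHT1, MMP1 and SAM3 there. SAM3 stood at log2 0.59 ± 0.10 in RPD3 S418A and -0.48 ± 0.10 in RPD3 KO, and did not pass in SWI3 S237A (log2 0.09). In SWI3 S237A the count was 1 in such a fit and without wild-type replicate 1 or any 1 of SWI3 S237A replicates 2, 10 and 18. The homocysteine methyltransferase gene MHT1 fell in RPD3 KO to 5.24 ± 0.355 CPM, against 19.8 ± 3.43 in wild type (log2 -1.91 ± 0.14, adjusted p = 9.81e-08), and rose in RPD3 S418A (log2 0.81 ± 0.12, adjusted p = 0.00507), while in SWI3 S237A it did not pass (log2 -0.02 ± 0.13). The S-methylmethionine permease gene MMP1 fell in RPD3 KO (log2 -1.39 ± 0.19) and rose in RPD3 S418A (log2 0.97 ± 0.18) and SWI3 S237A (log2 1.47 ± 0.18). The methionine permease genes MUP1 (log2 -0.62 ± 0.18) and MUP3 (log2 -0.53 ± 0.15) fell in RPD3 KO. In RPD3 S418A MUP1 (log2 0.17) and MUP3 (log2 -0.15) did not pass. In SWI3 S237A MUP1 rose (log2 0.46 ± 0.17, adjusted p = 0.0398) and MUP3 did not pass (log2 -0.03). Medians of this list were -0.57 in RPD3 KO, 0.38 in RPD3 S418A and 0.08 in SWI3 S237A. AAACTGTGG is in the windows of 3 of the 6 genes and CACGTG in 0.

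Of the 5 core genes of the SCF ligase that carries Met30, 0 were higher and 4 lower in RPD3 KO (median log2 -0.48), 0 changed in RPD3 S418A (median log2 0.12), and 0 were higher and 2 lower in SWI3 S237A (median log2 -0.16). Among all genes 38.0% were lower in RPD3 KO and 31.3% in SWI3 S237A, and a count of 4 or 2 of 5 sets the list apart from them in neither. In RPD3 S418A 2.02% of all genes were called. In RPD3 S418A edgeR and DESeq2 each had 1 of the 5 under 0.05 before adjustment and 0 after. The SWI3 S237A count was 1 under scaling by total counts alone and without wild-type replicate 9 or SWI3 S237A replicate 2 or 18. In RPD3 KO the RING subunit gene HRT1 (log2 -0.50 ± 0.12), the ubiquitin-like modifier gene RUB1 (log2 -0.49 ± 0.08), the conjugating enzyme gene CDC34 (log2 -0.48 ± 0.06) and the adaptor gene SKP1 (log2 -0.26 ± 0.08) fell. In SWI3 S237A HRT1 (log2 -0.33 ± 0.12) and SKP1 (log2 -0.39 ± 0.08) fell, and RUB1 (log2 -0.05) and CDC34 (log2 -0.03) did not pass. In RPD3 S418A the 4 stood at 0.23 for HRT1, 0.23 for RUB1, 0.05 for CDC34 and 0.12 for SKP1. HRT1 and SKP1 had counts that were not whole.

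**Figure D5:**
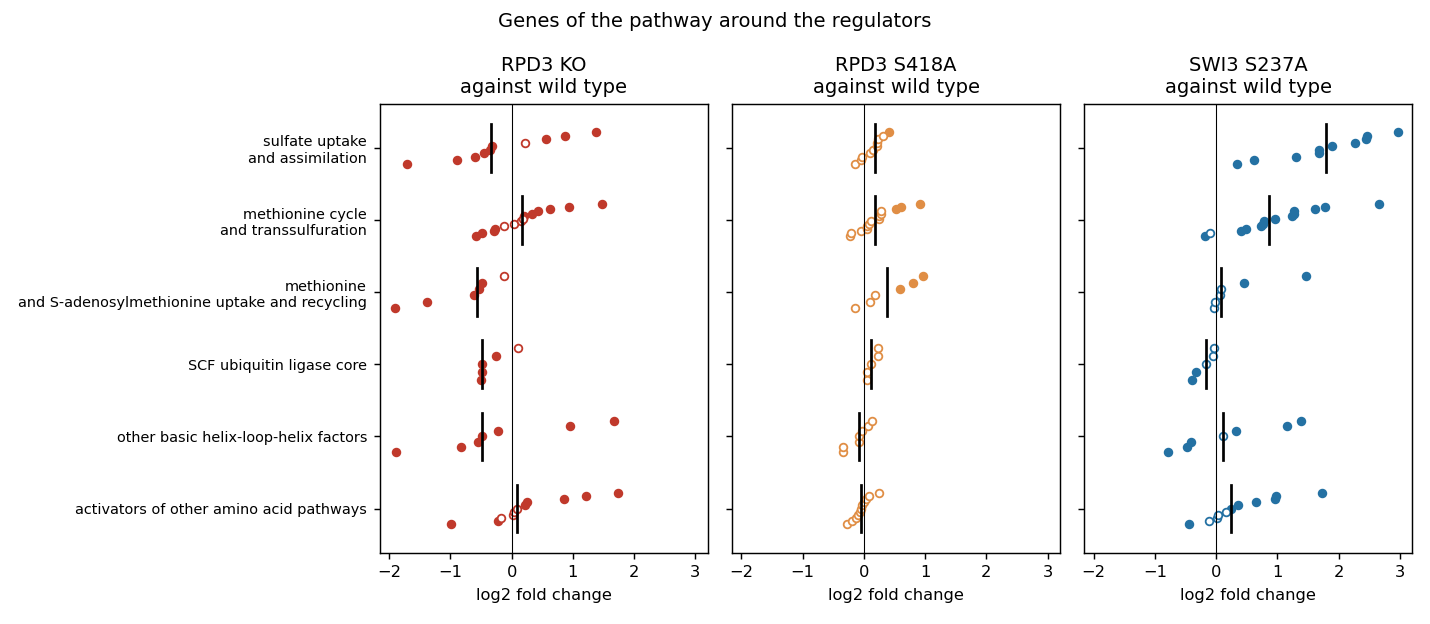
Log2 fold change against wild type (horizontal axis) of each tested gene in 6 lists, for RPD3 KO, RPD3 S418A and SWI3 S237A; filled points passed an adjusted p under 0.05, open points did not, and vertical ticks are list medians. The sulfate assimilation genes lie to the right of 0 in SWI3 S237A (median 1.79) and on both sides of it in RPD3 KO (median -0.34).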

How the data were processed

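Trimmomatic 0.36 and kallisto 0.44.0 against R64 gave the deposited estimated counts and TPM, per the submitters' processing notes; libraries used 600 ng of total RNA and a stranded kit, per the labels' protocols. Whether kallisto used strand is unknown here. The authors' deposited tables from DESeq2 hold a mean signal, a log2 fold change and its error, a test score, and a p-value with its adjusted value, per the file headers.

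Estimated counts were rounded and fitted in edgeR 4.0.16 (R 4.3.3): quasi-likelihood, robust, 12 libraries in 1 fit, TMM, default filter by strain, 6 comparisons, and adjusted over 6327 genes. A shared fit lets every strain's spread enter each comparison. The method was run on simulated counts in which few genes changed, for RPD3 KO against wild type. That run does not test the scaling where most genes were called, as in the comparisons with RPD3 KO or SWI3 S237A. Alternatives were DESeq2 1.42.0 and those in the closing section; summing MET28 and YIR017W-A was chosen after their shared reads were seen. Positions, names and upstream sequences came from RefSeq R64, which matched 6026 of 6713 targets, 6021 with the same length.

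All regulators and RPD3 are named, with, for each regulator, the 3 genes of nearest profile and, for each list, up to 4 members called in RPD3 KO with the largest fold change. Profile distances used log2(CPM + 0.5). Regulators and lists were chosen with earlier results of these data known. Floors cover counting error only.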

Additional observations from a re-analysis of the deposited data

How the results depend on the processing

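The count of regulators called stayed at 5 in RPD3 KO and 0 in RPD3 S418A against wild type under all 13 alternatives each, and ran from 4 to 5 in SWI3 S237A. It also stayed at 5 for RPD3 S418A against RPD3 KO. It ran from 3 to 6 for SWI3 S237A against RPD3 KO, where leaving out a library gave 3 (without RPD3 KO replicate 12) to 4, and from 4 to 6 for SWI3 S237A against RPD3 S418A. The number of all genes called in RPD3 S418A against wild type, 128, became 310 with DESeq2, 29 in a fit of the 2 strains alone and 60 to 272 when a library was left out (60 without RPD3 S418A replicate 19, 68 without replicate 11, 74 without wild-type replicate 17 and 272 without wild-type replicate 1); the cause was not tested. Differences that did not pass changed sign when a library was left out: in RPD3 S418A against wild type MET4 ran from -0.14 to 0.00092, MET28 from -0.51 to 0.038, MET30 from -0.11 to 0.15 and MET31 from -0.048 to 0.16, and in RPD3 S418A against RPD3 KO MET31 ran from -0.12 to 0.088. MET28 summed with YIR017W-A also turned, to 0.28, in RPD3 S418A. Of 468 refitted fold changes of regulators 433 kept their sign and their side of the threshold. Of 468 recounts of lists 449 stayed within 1.5 times, and both ratios kept their sign in all 7 alternatives each. The tallies of 468 include the sum of MET28 with YIR017W-A, which altered no other gene's counts. Under that sum the other regulators and the lists could hardly change. No title number is shared between strains, but the numbers run in 3 sets with 1 library of each strain (1 to 4, 9 to 12 and 17 to 20), which the labels do not call batches. Deviations from the strain mean in the same set correlated over 0.1 in 8 of 18 pairs of libraries (r from -0.13 to 0.43), so the sets were not taken as pairs. A fit with the set as a replicate block, added after seeing the data, called CBF1 in SWI3 S237A against RPD3 KO (log2 0.17, adjusted p = 0.0375), which made 6 regulators there. It changed no other call of a regulator, and 147 genes were called in RPD3 S418A against wild type. At this depth, MET28 in RPD3 KO rests on 33.0 to 49.5 estimated counts per library.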

Other observations

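Lists outside the methionine pathway gave the following values. Of the 7 other basic helix-loop-helix genes, the family of CBF1, 2 were higher and 5 lower in RPD3 KO (median log2 -0.48), 0 changed in RPD3 S418A (median log2 -0.07; before adjustment 1 under 0.05 by edgeR and 2 by DESeq2, after it 0 by both) and 3 were higher and 3 lower in SWI3 S237A (median log2 0.11), beside 69.9%, 2.02% and 60.0% of all genes called. The inositol pathway activator gene INO2 rose in RPD3 KO (log2 1.67 ± 0.09) and SWI3 S237A (log2 1.39 ± 0.09), as did the phosphate pathway activator gene PHO4 (log2 0.95 ± 0.24 and 1.16 ± 0.24). HMS1 (log2 -1.89 ± 0.15 in RPD3 KO and -0.42 ± 0.14 in SWI3 S237A) and the glycolytic activator gene TYE7 (log2 -0.83 ± 0.16 and -0.48 ± 0.16) fell in both. In RPD3 S418A INO2 stood at -0.35, PHO4 at -0.07, HMS1 at 0.14 and TYE7 at -0.34.

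Of 11 activators of other amino acid pathways, 5 were higher and 2 lower in RPD3 KO (median log2 0.09), 0 changed in RPD3 S418A (median log2 -0.05; 2 under 0.05 before adjustment and 0 after, by edgeR and by DESeq2) and 6 were higher and 1 lower in SWI3 S237A (median log2 0.25). Its 7 called of 11 in RPD3 KO and in SWI3 S237A lie near the 69.9% and 60.0% of all genes called. In RPD3 S418A 2.02% of all genes were called. BAS1, of purine and histidine synthesis, rose in RPD3 KO (log2 1.73 ± 0.08) and SWI3 S237A (log2 0.96 ± 0.08). The proline pathway activator gene PUT3 (log2 1.21 ± 0.07 and 0.65 ± 0.07) and the leucine pathway activator gene LEU3 (log2 0.86 ± 0.07 and 0.36 ± 0.07) rose in both strains as well, and the lysine pathway activator gene LYS14 fell in RPD3 KO (log2 -0.99 ± 0.10) and did not pass in SWI3 S237A (log2 0.01 ± 0.10). In RPD3 S418A BAS1 stood at -0.27, PUT3 at -0.05, LEU3 at -0.09 and LYS14 at 0.08.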
